A study of Mus musculus with 3 samples.

Results

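The genes of the mitochondrial respiratory chain and ATP synthase were followed through single liver cells of mice. Members were all genes whose symbol begins with mt-, and all nuclear genes whose symbol begins with Ndufa, Ndufb, Ndufc, Ndufs, Ndufv, Sdha to Sdhd, Uqcr, Cox4 to Cox8 or Atp5. The 8 Ndufaf and 4 Sdhaf genes that the same letters catch, which are assembly factors, were left out, and no pseudogene was caught. This gave 96 of the 23860 genes in the tables of both libraries. All 13 mt- genes were protein-coding, and the other 83 genes are nuclear: 38 of complex I, 4 of complex II, 8 of complex III, 16 of complex IV and 17 of complex V. Complexes follow the symbol alone, so that Ndufa4, now known as a subunit of complex IV, and Ndufa4l2 are counted under complex I. Membership follows the symbol too, so not every member need be a subunit. Cox8b was listed in 1 library alone.

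Both libraries were made from mouse liver on the BD Rhapsody system, which captures single cells in microwells and counts tagged mRNA molecules (UMIs). The sample titled MCD is called the MCD-titled library here. Its table was assigned to that title by elimination, because the deposited table names the library APAP0h and WT and the study describes normal chow diet (NCD), so its diet, any treatment and its genotype are not settled. The HFHC pool joins WT_HCFC and Chil1-/-_HFHC mice, wild-type animals and animals without Chil1 (the gene also called Chi3l1) on a high-fat, high-cholesterol diet, and no genotype is given for any cell. The labels call the cells parenchymal and the study's methods call them non-parenchymal (NPCs). The mice are C57BL/6J, and their ages were not given in the sources used here. With 1 library per group there was no test of the difference between the libraries, and diet, genotype, capture and library cannot be told apart. Intervals in brackets are exact 95% intervals that cover counting error only.

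The respiratory chain passes electrons from NADH and succinate to oxygen and pumps protons across the inner mitochondrial membrane, and ATP synthase uses that gradient to make ATP. Its complexes are built from subunits of separate genomes: the mitochondrial DNA encodes the hydrophobic core of complexes I, III, IV and V, and the nucleus encodes all of complex II and the remaining subunits of the others. Hepatocytes are rich in mitochondria, while mature neutrophils rely largely on glycolysis. In single-cell work a high mt- share of a cell's UMIs is also read as a mark of damage, and cells above a limit are commonly discarded. Here cells with 200 to 4000 genes were kept whatever their mt- share, which left 24400 of 30734 cells in the MCD-titled library and 19872 of 21601 in the HFHC pool.

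The mt- genes lie end to end on a small circular genome and some share bases with a neighbour on the same strand. Such bases alone cannot tell the genes of a pair apart. The counts follow the annotated genes and do not show whether the genes of a pair lie on separate transcripts. The stretches of 2 such pairs are shown because mt-Atp8 and mt-Nd4l are among the genes whose share differed between the libraries. The part of the shared bases in these differences was not tested. mt-Nd3, whose share also differed, shares no bases with another member. Sequences are GENCODE M21 transcripts on GRCm38, chrM:7897-7999 and chrM:10137-10203, both on the plus strand, and capitals mark the 43 bases that the pair mt-Atp8 and mt-Atp6 share and the 7 bases that the pair mt-Nd4l and mt-Nd4 share.
mt-Atp8 to mt-Atp6: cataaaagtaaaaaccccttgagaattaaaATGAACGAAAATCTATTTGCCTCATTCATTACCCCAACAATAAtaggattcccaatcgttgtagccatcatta
mt-Nd4l to mt-Nd4: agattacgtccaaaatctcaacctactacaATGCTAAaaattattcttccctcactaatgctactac

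Cells were clustered without the members, so that none of them decided a class, and clusters were named by marker genes as hepatocyte-like, Kupffer cell-like (KC-like), monocyte- or monocyte-derived macrophage-like (MoMF-like), dendritic cell-like, neutrophil-like, T cell-like, B cell-like, NK cell-like and endothelial cell-like. These 9 classes had at least 200 cells in each library. Kept cells held a median of 1287.5 UMIs in the MCD-titled library and 1627.5 in the HFHC pool, and 756 cell labels occurred in both libraries. Hepatocyte-like cells numbered 7249 and 12556, although the methods describe NPCs. Markers of hepatocytes made up 7.97% and 5.33% of their UMIs outside mt- genes. Most of them were in clusters 1 and 2 in the MCD-titled library, and in clusters 0, 6, 7, 10 and 11 in the HFHC pool. Genes of the dissociation response had a higher median in the HFHC pool in all 9 classes, by 0.43 to 1.71 on the log2 scale. Malat1 and Neat1, nuclear RNAs listed as signs of RNA quality, had a median below 0 in 9 of 9 classes, from -1.11 to -0.10 and at -1.03 in hepatocyte-like cells, with 4 of their 18 values at -1 or less. The part of either shift in the results below was not tested.

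Between the libraries the mt- share of UMIs was similar within most classes and far lower in hepatocyte-like cells of the HFHC pool. Summed over all kept cells, they made up 8.45% of UMIs in the MCD-titled library and 6.13% in the HFHC pool. Outside hepatocyte-like cells the shares were 8.44% and 8.17%. B cell-like cells had the highest share in both libraries, 12.3% [12.3 to 12.4] and 10.98% [10.94 to 11.02]. T cell-like cells held 9.23% and 8.74%, endothelial cell-like cells 9.97% and 9.02%, and dendritic cell-like cells 8.68% and 7.67%. MoMF-like cells, at 7.07% and 6.57%, and NK cell-like cells, at 7.20% and 6.88%, had log2 ratios on both sides of 0 over the alternatives run, from -0.12 to 0.05 and from -0.07 to 0.17.

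**Figure D1:**
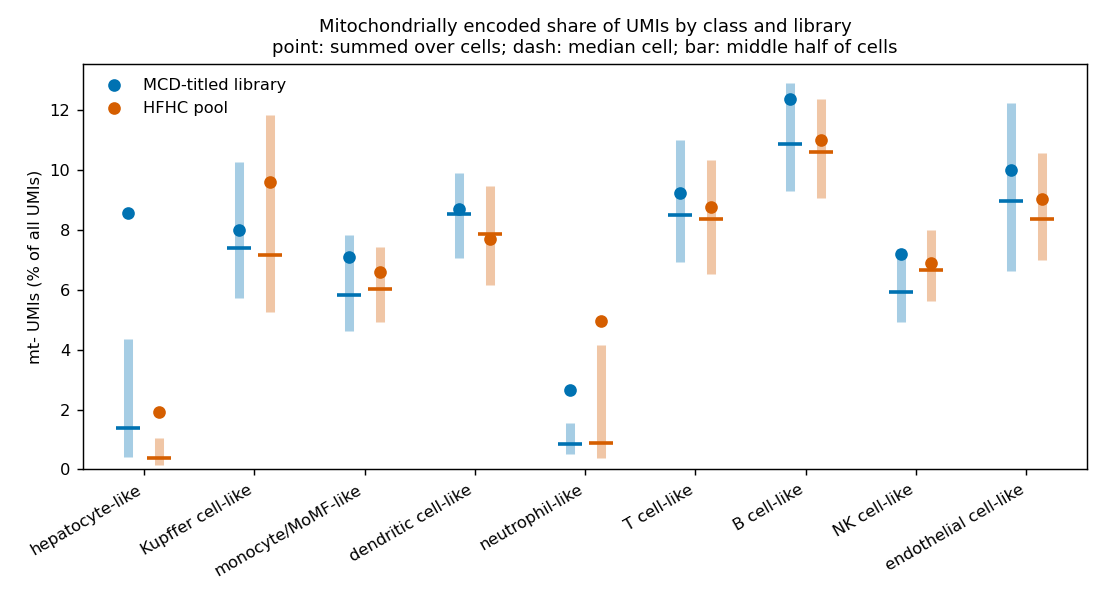
Share of UMIs from the 13 mt- genes in each cell class, in percent, for the MCD-titled library and the HFHC pool. Points are the shares summed over cells, dashes the median single cell, and bars run from the lower to the upper quartile of single cells. Hepatocyte-like cells stand apart, with 8.56% in the MCD-titled library and 1.90% in the HFHC pool.

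Hepatocyte-like, neutrophil-like and KC-like cells departed from this pattern. In hepatocyte-like cells the mt- share was 8.56% [8.54 to 8.58] in the MCD-titled library and 1.90% [1.90 to 1.91] in the HFHC pool, a log2 ratio of -2.17. In neutrophil-like cells it was 2.66% [2.65 to 2.68] and 4.94% [4.90 to 4.99], the lowest share of the 9 classes in the MCD-titled library. The neutrophil difference was not seen in the median over single cells, which was 0.86% and 0.87%. In KC-like cells the share was 7.99% and 9.57%, and without cluster 19 it was 7.52% and 8.61%. This difference turned under some of the alternatives, with log2 ratios from -0.09 to 0.26.

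In hepatocyte-like cells the mt- share differed widely between single cells. The median cell held 1.39% mt- UMIs in the MCD-titled library and 0.385% in the HFHC pool, far below the summed shares, with single cells reaching 96.9% and 93.2%. All 7 hepatocyte-like clusters had the lower summed share in the HFHC pool, although clusters 0, 7 and 11 held only 52, 88 and 43 cells of the MCD-titled library. Cluster 10 had 2.28% and 0.503%, and cluster 6 had 13.1% and 2.44%. In cluster 2 the gap was small, 9.58% and 7.52%. Depth differed too, with a median of 525 UMIs per hepatocyte-like cell in the MCD-titled library and 854 in the HFHC pool. Among cells of 200 to 500 genes, which were 5159 and 5926 of the hepatocyte-like cells, the shares were 10.6% and 2.54%. Among cells of over 500 and up to 1000 genes they were 5.17% and 2.28%, and among cells of over 1000 and up to 2000 genes 9.77% and 1.43%, so that the direction was the same within each of these depths. Over 2000 genes the HFHC pool had 386 cells and the MCD-titled library too few for a value.

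Cells with an mt- share over 25%, the limit in the study's methods, were 1054 of 24400 (4.32%) in the MCD-titled library and 247 of 19872 (1.24%) in the HFHC pool. They were unevenly spread over the classes. Among KC-like cells 6.31% and 10.3% were over the limit, and among T cell-like cells 4.96% and 0.635%. KC-like cluster 19, with 520 and 72 cells, held most of such KC-like cells: its summed mt- share was 20.5% and 30.2%, and 35% and 44.4% of its cells were over the limit. These cells were shallow, with a median of 691.5 and 1728.5 UMIs against 4904 and 8802 in the other KC-like clusters. In KC-like and T cell-like cells the mt- share was highest in the cells with the fewest genes. KC-like cells of 200 to 500 genes held 27.99% and 62.9% mt- UMIs, and those of over 2000 genes 6.99% and 8.20%. T cell-like cells of 200 to 500 genes in the MCD-titled library held 25.8%, and those of over 2000 genes 7.76%.

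Nuclear members ordered the classes differently, with hepatocyte-like cells highest in both libraries. They made up 4.03% [4.02 to 4.05] of UMIs outside mt- genes in hepatocyte-like cells of the MCD-titled library and 3.54% in the HFHC pool, and between 0.801% and 1.51% in the other 8 classes. Neutrophil-like cells were lowest, at 0.849% and 0.801%, and B cell-like cells, highest in mt- share, held 1.17% and 1.07%. Counted as mt- UMIs per nuclear member UMI, which does not depend on scaling, hepatocyte-like cells had 2.32 and 0.548. B cell-like cells had 12.1 and 11.5, T cell-like cells 6.93 and 7.34, and neutrophil-like cells 3.22 and 6.49. Between the libraries the nuclear share of hepatocyte-like cells thus moved from 4.03% to 3.54% while their mt- share moved from 8.56% to 1.90%.

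**Figure D2:**
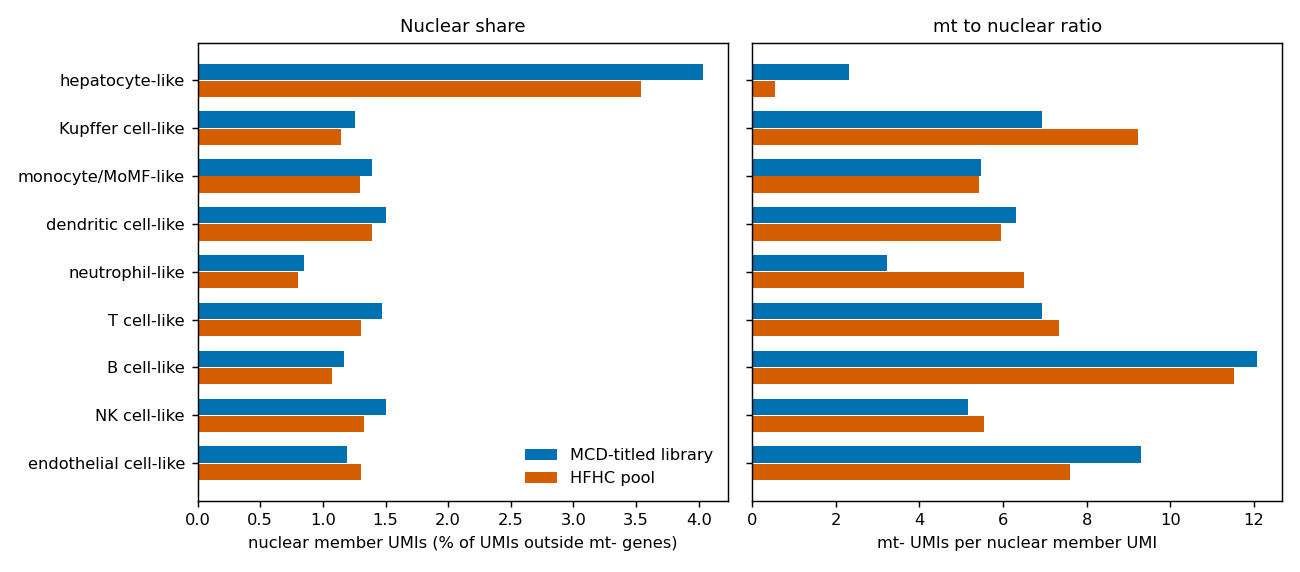
Nuclear members in percent of the UMIs outside mt- genes (left) and mt- UMIs per nuclear member UMI (right) in each cell class and library. Hepatocyte-like cells lie highest on the left, at 4.03% and 3.54%, and lowest on the right, at 2.32 and 0.548.

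Set against the other 8 classes within a library, hepatocyte-like cells held at least 2 times the level of most nuclear members. In the MCD-titled library 67 of 80 measured nuclear members had a log2 ratio of 1 or more, where 16.5% of all genes did, and in the HFHC pool 63 of 80 did, where 19.3% of all genes did. The median was 1.69 and 1.58, beside -0.85 and -0.80 over all genes. Complex II, which joins the chain to the TCA cycle, was raised as a whole, with 4 of 4 members past this ratio in both libraries and medians of 2.003 and 2.17. Of complex III 8 and 7 of 8 members were past it, of complex I 32 and 29 of 37, and of ATP synthase 15 and 16 of 17. Complex IV was the most uneven, with 8 and 7 of 14, and both members that were lower by a log2 ratio of 1 or more in hepatocyte-like cells, Cox6a2 and Cox6b2, are isoforms of it. Among all genes 46.7% and 46.2% were lower by as much.

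With both libraries together, the 5 nuclear members of the widest range over the classes were highest in hepatocyte-like and lowest in neutrophil-like cells. Sdhc, a membrane anchor of complex II, had 427 UMIs per 1000000 UMIs outside mt- genes (CPM) in hepatocyte-like and 34.3 in neutrophil-like cells. The complex III subunits Uqcrb, Uqcrfs1 (the Rieske iron-sulfur protein) and Uqcr11 had 790 and 76.3, 648 and 63.8, and 338 and 34.5 CPM. Ndufa10, an accessory subunit of complex I, had 587 and 57.7 CPM. The pooled range also holds the difference between the libraries, since 12556 of the hepatocyte-like cells came from the HFHC pool and 3295 of the neutrophil-like cells from the MCD-titled library. Within the MCD-titled library Sdhc had 284 and 29.5 CPM, and within the HFHC pool 470 and 54.8 CPM. The order of the genes differed within each library. In the MCD-titled library Atp5g1, a copy of the ring subunit of ATP synthase named here after its values were seen, had 1165 CPM in hepatocyte-like and 89.2 CPM in neutrophil-like cells, a wider ratio than that of any of the 5 genes. In neutrophil-like cells 47 and 65 of 80 nuclear members had a log2 ratio of -1 or less, where 57.1% and 50.3% of all genes did. Their count was thus near that of all genes in the MCD-titled library.

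The counts of other mitochondrial gene lists in hepatocyte-like cells are read against the same 16.5% and 19.3% of all genes. Of 18 TCA cycle genes 13 were past a log2 ratio of 1 in both libraries, with medians of 1.45 and 1.60. Of the 77 genes of the mitochondrial ribosome 40 and 42 were, with medians of 1.01 and 1.095. Of the assembly factors 17 and 19 of 43 were past it. The genes that copy and process mitochondrial DNA and RNA, with 6 and 8 of 26, lay nearer the share of all genes. Regulators of mitochondrial genes, such as Ppargc1a and Nrf1, were past it in 2 of 10, near the share of all genes. Of the 10 regulators 3 and 4 had a log2 ratio of -1 or less, below the 46.7% and 46.2% of all genes that did. Of the electron carriers and uncoupling proteins 11 of 17 were past it in both libraries.

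Among the mt- UMIs themselves the share of each gene varied over the classes of a library, and for 3 genes the ranges over the classes did not overlap between the libraries. Among all genes outside the mt- genes measured in the 9 classes, 18 of 3453 (0.521%) had such ranges in CPM, a different scale from the share of mt- UMIs. The share of mt-Nd2, for example, ran from 7.58% to 13.1% over the classes in the MCD-titled library and from 6.17% to 11.8% in the HFHC pool. mt-Nd4l, a core subunit of complex I, made up 0.882% to 1.37% of mt- UMIs over the 9 classes in the MCD-titled library and 2.13% to 3.33% in the HFHC pool. mt-Nd3, also of complex I, went the other way, with 3.32% to 3.89% and 1.71% to 2.28%. mt-Atp8, of ATP synthase, had 0.357% to 0.411% and 0.502% to 0.606%. Among the other 10 genes, whose ranges overlapped, 4 lay in 1 direction in all 9 classes, as 16.7% (higher) and 16.2% (lower) of all genes did in CPM. The share of mt-Co3 was higher in the HFHC pool by 0.15 to 0.45 on the log2 scale and that of mt-Atp6 by 0.11 to 0.21. The log2 ratio of the share was -0.29 to -0.14 for mt-Nd1 and -0.21 to -0.03 for mt-Nd4. The classes of a library come from 1 library, so that 9 classes are not 9 replicates.

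**Figure D3:**
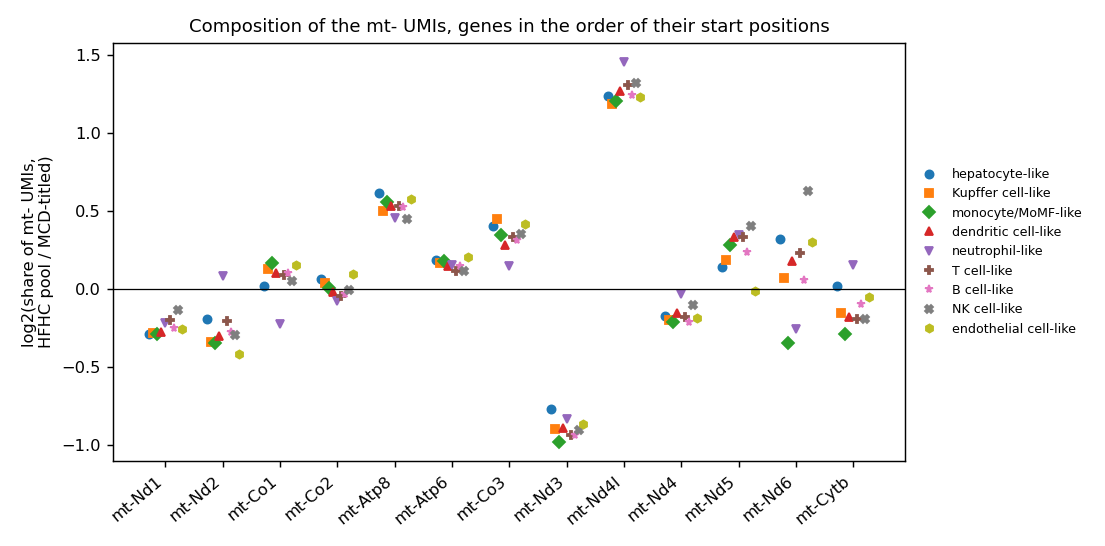
Log2 ratio of the share that each mt- gene has of the mt- UMIs, HFHC pool over MCD-titled library, with 1 marker per class and the genes in the order of their start positions. mt-Nd4l lies highest and mt-Nd3 lowest of the 13 genes in each of the 9 classes.

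Divided by gene length, the shares of the mt- genes differed widely, also within a complex. UMIs count molecules whatever their length, so this division raises short genes and gives no level of transcripts. Without it the median over classes was 27.5% and 29.7% of mt- UMIs for mt-Co1, and 11.7% and 11.5% for mt-Co2. As the median over classes, mt-Co1 had 17.8% and 19.2% of mt- UMIs per kilobase, mt-Co2 17.1% and 16.8%, and mt-Atp6 15.7% and 17.6%. mt-Co3, of the same complex IV as mt-Co1 and mt-Co2, had 4.52% and 5.69%. mt-Nd6, a subunit of complex I and the only mt- gene on the minus strand, was lowest at 0.0961% and 0.113%, and it held under 100 UMIs in neutrophil-like cells. mt-Nd3 had 9.83% and 5.45% per kilobase, and mt-Nd4l 3.37% and 8.40%, so that their order was turned between the libraries.

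In hepatocyte-like cells all 13 mt- genes were lower in the HFHC pool on the scale of UMIs outside mt- genes. mt-Co1, the catalytic core of complex IV, had 20766 and 4353 CPM, a log2 ratio of -2.25 [-2.27 to -2.24]. The least lowered was mt-Nd4l, with 1278 and 624 CPM and a log2 ratio of -1.04, and the most lowered mt-Nd3, with 3643 and 443 CPM and a log2 ratio of -3.04. In T cell-like cells mt-Co1 was level, with 29605 and 29651 CPM.

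Between the libraries few nuclear members of a class were past a log2 ratio of 1, and in most classes their share was near or below that of all genes. In hepatocyte-like cells 3 of 78 measured nuclear members were higher by a log2 ratio of 1 or more in the HFHC pool and 2 were lower by as much, where 13.5% of all genes were past this ratio in either direction. In KC-like cells 4 of 77 were higher and 1 lower, beside 7.34% of all genes. In MoMF-like cells 5 of 75 were higher and 0 lower, beside 6.5%, and in dendritic cell-like cells 5 of 76 and 0, beside 5.49%. Neutrophil-like cells had 3 of 67 and 0, beside 13.1%. With own-marker classes, in which each cell is named by its own marker UMIs, they had 0 and 1 of 66 and a median of -0.24 in place of 0.06, and in cells thinned to 1000 UMIs 0 and 6 of 51 and a median of -0.27. T cell-like cells had 3 of 77 and 1, beside 8.88%. B cell-like cells had 3 of 74 and 1, beside 6.11%, and thinned 0 and 1 of 58, with a median of -0.29 in place of -0.08. NK cell-like cells had 3 of 72 and 0, beside 6.3%, and thinned 0 and 2 of 50. Endothelial cell-like cells had 3 of 78 and 2, beside 8.59%, and 6 and 1 of 77 with own-marker classes. The percentages of all genes belong to the main setting. None is given here for own-marker classes or thinned cells, so those counts have no background beside them. Over the 9 classes together this made 32 and 7 of 674 values, from 6 and 4 genes, beside 4.7% of all values higher and 3.77% lower. The count of higher values was thus at the background. The medians of the nuclear members lay between -0.14 and 0.16, and those of all genes between -0.01 and 0.06.

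The medians of the complexes leaned in different directions, although the members of a complex were split. The median of complex II was above 0 in 9 of 9 classes, from 0.18 to 0.53, and that of complex III from 0.09 to 0.64. The median of complex IV was below 0 in 9 of 9 classes, from -0.42 to -0.05. Sdhd of complex II lay below 0 in 6 of 9 classes, and Uqcr10 and Uqcrq of complex III in 7. Within complex IV, Cox7a2 lay above 0 in 9 classes and Cox4i1 in 8. A median of 1 sign in 9 of 9 classes was also seen for cytosolic ribosomal proteins, from 0.06 to 0.74. The classes of a library are not replicates. Complex I, from -0.29 to 0.05, and complex V, from -0.12 to 0.13, changed sign between classes. In hepatocyte-like cells complex IV made up 22.7% of the nuclear member UMIs in the MCD-titled library and 18.0% in the HFHC pool, complex III 10.9% and 13.5%, and complex II 4.09% and 5.76%. Complexes I and V moved by less, from 27.9% to 27.3% and from 34.4% to 35.4%.

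**Figure D4:**
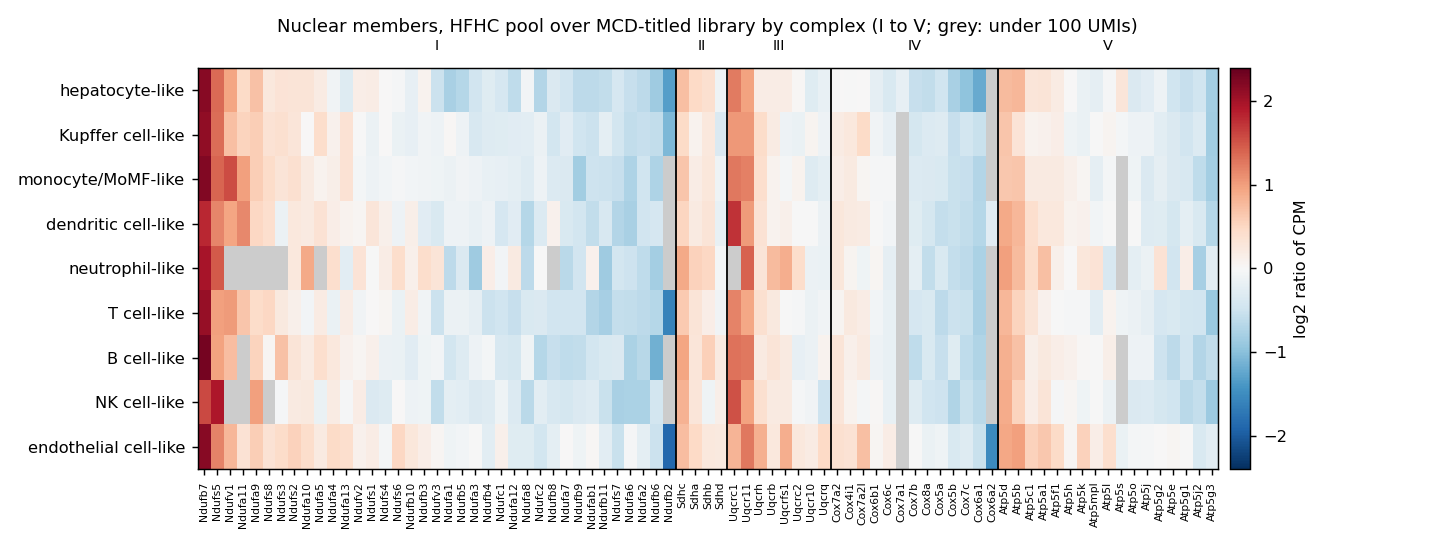
Log2 ratio between the libraries (above 0, higher in the HFHC pool) for each nuclear member measured in at least 1 class, as a grid of classes (rows) by genes (columns, grouped by complex). Red is higher and blue lower in the HFHC pool, and grey marks a gene with under 100 UMIs in that class. Ndufb7 is red throughout, from 1.58 to 2.30, and most members are pale, between -1 and 1.

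Ndufb7, an accessory subunit of complex I on the side facing the intermembrane space, was the 1 nuclear member with a log2 ratio of 1 or more in all 9 classes. It had 30.8 and 140 CPM in hepatocyte-like cells, a log2 ratio of 2.18 [1.95 to 2.43]. In the immune classes it had 15.5 and 68.0 CPM in KC-like cells, 16.2 and 77.1 in MoMF-like cells and 18.2 and 78.3 in T cell-like cells. NK cell-like cells had the smallest difference, 33.2 and 101 CPM, with a log2 ratio of 1.58. Its counts were small in some classes, with 32 and 201 UMIs in NK cell-like, 19 and 128 in B cell-like and 54 and 50 in neutrophil-like cells. In NK cell-like and B cell-like cells it passed the minimum of 100 UMIs through the HFHC pool, where it was higher. In neutrophil-like cells it had 1.97, and 1.72 with own-marker classes, where it held under 100 UMIs and was not counted. Its log2 ratio was 1.57 or more in every class under each alternative run, also where it held under 100 UMIs. This was so in neutrophil-like, B cell-like and NK cell-like cells thinned to 1000 UMIs, where 0 measured members were at 1 or more. Of the 3453 genes measured in all 9 classes, 27 (0.782%) had a log2 ratio of 1 or more in every class.

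Other members of complexes I and III lay in the same direction. Ndufs5, an accessory subunit of complex I, had 129 and 331 CPM in hepatocyte-like cells and log2 ratios from 0.97 to 1.95 over the classes. Uqcrc1, a core subunit of complex III, had 93.9 and 223 CPM there and log2 ratios from 0.81 to 1.73 in the 8 classes where it was measured. Uqcr11 had 194 and 382 CPM and log2 ratios from 0.92 to 1.42. Ndufv1, the subunit of complex I that binds FMN and takes up NADH, had log2 ratios from 0.72 to 1.56 in 7 classes, and Ndufa11 from 0.34 to 1.16 in 6. Atp5d and Atp5b, subunits of ATP synthase, stayed under 1 in every class, with ranges from 0.65 to 0.99 and from 0.33 to 0.98. Sdhc, with 0.45 to 0.95, lay above 0 in all 9 classes as well.

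Subunits of complexes I, IV and V were among those lower in the HFHC pool. Ndufb2, of complex I, had 68.8 and 27.4 CPM in hepatocyte-like cells and log2 ratios from -1.89 to -1.07 in the 4 classes where it was measured. Cox6a1, the common isoform of a complex IV subunit, had 909 and 391 CPM in hepatocyte-like cells, a log2 ratio of -1.22 [-1.27 to -1.16], and from -0.77 to -0.53 in the other classes. Cox7c, also of complex IV, had 1578 and 803 CPM in hepatocyte-like cells, with log2 ratios from -0.97 to -0.31 over the classes. Atp5g3, a copy of the ring subunit of ATP synthase, had 2868 and 1624 CPM, with log2 ratios from -0.89 to -0.25. Ndufb6 reached -1.15 in B cell-like cells and lay below 0 in all 9 classes. So did Ndufa3, Ndufa6, Ndufb9, Ndufb11 and Ndufs7, further subunits of complex I and among the 3 lowest members of a class, with lowest log2 ratios of -0.86, -0.79, -0.83, -0.85 and -0.79. Of the 67 nuclear members measured in all 9 classes, 13 were above 0 and 20 below 0 in every class, beside 16.7% and 16.2% of all genes.

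Other members with many UMIs stayed under a log2 ratio of 1. Ndufa4 had log2 ratios from -0.16 to 0.46, and Sdhd, a membrane anchor of complex II, from -0.34 to 0.23. Uqcrh, the hinge protein of complex III, lay above 0 in 9 of 9 classes, from 0.18 to 0.85. In endothelial cell-like cells 8 of 8 complex III members lay above 0, as did 49 of 78 nuclear members, where the median of all genes was 0.007. In the same cells 10 of 13 hepatocyte marker genes had a log2 ratio of 1 or more. Among all genes 8.59% were past this ratio in either direction. The sum of the hepatocyte markers rose from 0.18% to 0.48% of UMIs. Over the 9 classes the median log2 ratio of the hepatocyte markers was above 0 in 6 and below 0 in 3. It ran from -0.47 in hepatocyte-like to 1.20 in endothelial cell-like cells. Of their 120 values 18 were at 1 or more and 8 at -1 or less, beside 4.7% and 3.77% of all values. The part of hepatocyte RNA in the ratios of complexes II and III was not tested.

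In the other mitochondrial lists some of the counts between the libraries rested on single genes. Over the classes 5 of 249 values of assembly factors were at 1 or more and 11 at -1 or less, and 8 and 1 of 61 values of regulators, beside the 4.7% and 3.77% of all values. Cox17, a copper chaperone for the assembly of complex IV, was lower in the HFHC pool by a log2 ratio of -1.84 to -1.35 in all 9 classes, and it made up 9 of the 11 values of -1 or less in the list of assembly factors. Of the 3453 genes measured in all 9 classes, 5 (0.145%) were at -1 or less in every class. Esrra, a nuclear receptor that drives genes of oxidative metabolism, was higher by 1.66 to 2.27 in the 7 classes where it was measured, and made up 7 of the 8 values of 1 or more among the regulators. Ucp2, an uncoupling protein of the inner membrane, had log2 ratios from -1.63 to -0.48 and made up the 5 values of -1 or less among the 103 of electron carriers and uncoupling proteins, where 7 others were at 1 or more. Fastk had 0.87 to 1.64 in 6 classes and made up 4 of the 8 values of 1 or more among the 128 of genes that copy and process mitochondrial DNA and RNA. These genes were named because the counts of their lists turn on them. Of the 558 values of the mitochondrial ribosome 11 were at 1 or more and 15 at -1 or less, and of the 147 of the TCA cycle 2 and 0. The medians of the lists lay between -0.49 and 0.07 for assembly factors, between -0.02 and 0.67 for the TCA cycle and between -0.38 and 0.13 for the mitochondrial ribosome.

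Some of the nuclear members are known targets of a few common factors. Promoters are shown for 4 genes that differed between the libraries and held at least 1 of the marked cores below. RefSeq promoters of GRCm38.p6, 250 bases before and 50 after the start, were found for 68 of the 83 nuclear members and gave 73 promoters. Letters were searched on both strands. The NRF1 core, the letters GCGCA followed by their reverse complement, so that both strands read the same, was in 5 of 73 member promoters (6.85%) and in 1.34% of all 20996 promoters. The shorter letters TGCGCA, which can overlap either end of that core, were in 19 (26.0%) and in 9.80% of all. The ETS core CCGGAAG, bound by GABP, was in 16 (21.9%) and in 11.7% of all, and the YY1 core AAGATGGC in 10 (13.7%) and in 3.08% of all. Capitals mark the NRF1 core and the ETS and YY1 letters in the promoters of Ndufb7 (chr8:83566508-83566807, plus strand), Uqcrc1 (chr9:108936398-108936697, plus strand), Uqcr11 (chr10:80406772-80407071, minus strand) and Cox6a1 (chr5:115348909-115349208, minus strand).
Ndufb7: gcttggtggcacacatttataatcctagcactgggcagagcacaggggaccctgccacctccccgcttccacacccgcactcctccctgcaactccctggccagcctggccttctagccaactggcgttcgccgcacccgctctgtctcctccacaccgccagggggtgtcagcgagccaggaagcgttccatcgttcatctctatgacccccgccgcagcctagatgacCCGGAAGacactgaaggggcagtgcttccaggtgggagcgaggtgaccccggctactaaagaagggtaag
Uqcrc1: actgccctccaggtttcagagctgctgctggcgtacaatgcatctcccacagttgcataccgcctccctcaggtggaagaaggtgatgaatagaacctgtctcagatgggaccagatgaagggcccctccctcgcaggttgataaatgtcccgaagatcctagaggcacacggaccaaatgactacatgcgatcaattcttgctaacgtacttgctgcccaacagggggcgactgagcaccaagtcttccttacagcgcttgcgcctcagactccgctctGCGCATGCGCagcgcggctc
Uqcr11: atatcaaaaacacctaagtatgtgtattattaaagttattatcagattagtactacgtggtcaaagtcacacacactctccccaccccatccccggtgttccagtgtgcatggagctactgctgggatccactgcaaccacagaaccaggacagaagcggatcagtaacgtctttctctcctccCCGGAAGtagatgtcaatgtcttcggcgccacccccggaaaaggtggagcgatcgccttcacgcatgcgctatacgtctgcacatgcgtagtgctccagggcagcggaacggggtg
Cox6a1: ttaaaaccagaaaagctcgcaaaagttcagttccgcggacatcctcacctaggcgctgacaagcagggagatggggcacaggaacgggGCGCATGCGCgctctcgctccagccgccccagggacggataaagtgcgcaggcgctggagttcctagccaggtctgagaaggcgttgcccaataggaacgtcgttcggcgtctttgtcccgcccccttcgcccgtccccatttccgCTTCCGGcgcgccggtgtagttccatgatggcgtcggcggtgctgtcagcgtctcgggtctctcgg
The genes that were higher in the HFHC pool did not share 1 motif, and Cox6a1, which was lower, held both the NRF1 and the ETS letters. A match describes these letters only. The set of all promoters was not balanced against those of the members for base composition. Neither Ndufs5 nor Ndufb2 held the NRF1 core or the ETS or YY1 letters in this window, and Ndufs5 held the shorter TGCGCA.

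Tissue isoforms of the subunits had few UMIs, with a single exception. Cox4i2, Cox6b2, Cox8b and Ndufa4l2 had fewer than 100 UMIs in every class. Cox7a1, the heart and muscle isoform, was measured in hepatocyte-like cells alone, at 13.9 and 12.3 CPM, and its partner Cox7a2 had 427 and 432 CPM there. Cox6a2, the heart and muscle isoform of Cox6a1 (chr7:128205435-128206387, minus strand), had 728 and 605 CPM in dendritic cell-like cells and at most 20.1 CPM in any other class.

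Within dendritic cell-like cells Cox6a2 was found in 1 of the 2 clusters. Cluster 14, led by the plasmacytoid marker Siglech, had 2937 UMIs (1216 CPM [1172 to 1260]) in the MCD-titled library and 2081 (1074 CPM [1029 to 1121]) in the HFHC pool. Cluster 20, led by Xcr1, a marker of type 1 conventional dendritic cells, had 1 and 0 UMIs in 258 and 155 cells. Cox6a1 was present in both clusters, with 624 and 384 CPM in cluster 14 and 653 and 409 CPM in cluster 20. With each cell thinned to 1000 UMIs, 482 of 1046 dendritic cell-like cells (46.1% [43.0 to 49.2]) and 173 of 482 (35.9% [31.6 to 40.4]) had a Cox6a2 UMI, with 37 and 3 shallower cells left out. In KC-like cells, as background, 0.376% and 0% of thinned cells did, where 0 of 438 cells allows a share of up to 0.685%. Cluster 25, of endothelial cell-like cells, had 157 and 67.8 CPM of Cox6a2 in 96 and 29 cells, and it also held 422 and 402 CPM of Siglech.

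**Figure D5:**
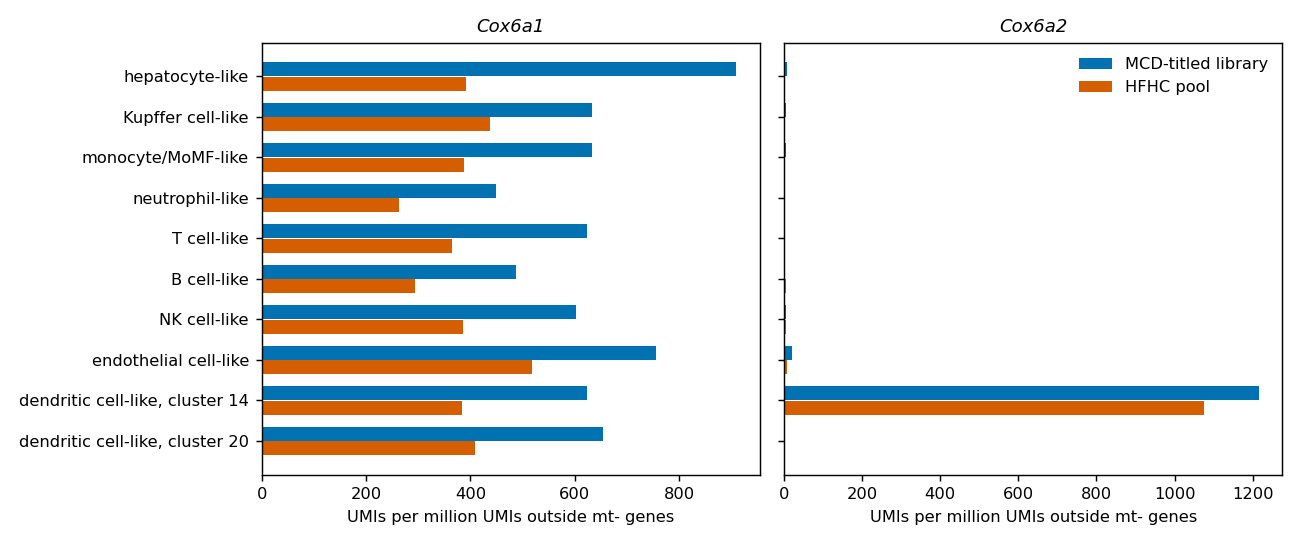
Level of Cox6a1 and Cox6a2 in CPM for 8 cell classes and for both clusters of dendritic cell-like cells, as bars by library. Cox6a1 is present in every class, and Cox6a2 reaches 1216 and 1074 CPM in cluster 14 and stays near 0 in cluster 20.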

How the data were processed

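Single liver cells of mice were measured in 2 whole-transcriptome libraries, and a sample-tag library of the HFHC pool entered no comparison. Per the file headers, the authors made the deposited counts with the BD Rhapsody WTA Analysis Pipeline 1.10.1 and GENCODE M19 (build GRCm38 per the labels). They are whole, unscaled numbers of error-corrected UMIs for each gene in each cell. The libraries held 53720863 and 71981673 UMIs. How reads shared with pseudogenes were counted is not given in the sources used here.

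Cells with 200 to 4000 genes were kept with no limit on the mt- share. Libraries were normalized with sctransform 0.4.2 on 4000 variable genes without the members, integrated by reciprocal PCA in Seurat 5.3.0 (R 4.3.3) with 30 components, and clustered with 20 neighbours at a resolution of 0.8. Clusters took the name of the class with the highest mean log2 marker score, at least 1 with 3 markers detected in 10% of cells, and those with a further class at 2 or more were called mixed. These thresholds were set after the clusters were seen. Scrublet (scanpy 1.11.5) called 1844 and 440 doublets (7.56% and 2.21% of kept cells), which were kept and taken out as an alternative.

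UMIs were summed per class and scaled to CPM of the UMIs outside mt- genes. Log2 ratios were formed after adding 1 UMI, for all genes with at least 100 UMIs. Between the libraries this minimum counted both libraries together. Genes past a log2 ratio of 1 were counted. Steps ran in Python 3.11.15 (numpy 2.4.6, scipy 1.17.1, pandas 2.3.3) and were tested on simulated data. Named genes are all mt- genes, the nuclear member with the most UMIs of each complex, isoform pairs, the 3 highest and 3 lowest ratios of each class, the 5 widest ranges over classes among 67 genes, and list genes on which a count turns. The clusters and genes shown for Cox6a2, the genes Atp5b, Atp5d, Ndufa11 and Sdhc between libraries, and the promoters were picked with their values in view. The members and lists were chosen with earlier results of these data known.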

Additional observations from a re-analysis of the deposited data

Results flagged for a closer look

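The cells left out for having fewer than 200 genes held a high mt- share. In 6266 such cells of the MCD-titled library 42.04% of UMIs came from mt- genes, and in 915 such cells of the HFHC pool 41.8%. The median cell among them held 3.61% and 0.897%, far below the summed shares. Nuclear members made up 3.39% and 3.21% of their UMIs outside mt- genes.

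In hepatocyte-like cells the mt- share moved from 8.56% in the MCD-titled library to 1.90% in the HFHC pool, and in neutrophil-like cells from 2.66% to 4.94%, and in KC-like cells from 7.99% to 9.57%. The neutrophil-like and KC-like shares thus moved in the direction opposite to that of the 7 other classes. KC-like cells and 2 of those 7, NK cell-like and MoMF-like cells, turned direction under some alternatives. With 1 library per group the difference between these directions was not tested. With other filters on cells, other ways of setting the classes and other weights, leaving aside the values by cluster and by depth, the log2 ratio of hepatocyte-like cells lay between -2.18 and -1.72, that of neutrophil-like cells between 0.02 and 1.18, that of KC-like cells between -0.09 and 0.26, that of NK cell-like cells between -0.07 and 0.17 and that of MoMF-like cells between -0.12 and 0.05.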

How the results depend on the processing

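No paired analysis was possible because each group has 1 library, and no replicate could be left out. The lower mt- share of hepatocyte-like cells in the HFHC pool kept its direction under every alternative run. Its log2 ratio, -2.17, was -1.72 in cells of at most 25% mt- UMIs, -2.01 in classes set by each cell's own markers, -1.91 with those classes and no filter on cells, -2.18 without called doublets and -1.85 as the median over single cells. Alternatives chosen after seeing the data gave -2.22 without cluster 0, -1.18 in cells of over 500 and up to 1000 genes, and -1.97, -2.21, -0.35, -2.42, -1.19, -2.18 and -0.70 within clusters 0, 1, 2, 6, 7, 10 and 11.

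The median mt- share of the 9 classes, 8.56% in the MCD-titled library and 7.67% in the HFHC pool, was 7.40% and 7.60% at the 25% limit, 8.84% and 7.98% with own-marker classes, 8.89% and 7.16% also without a filter, 8.53% and 7.82% at a resolution of 1.0, and 7.38% and 7.16% over single cells. At the 25% limit the order of the libraries was turned. The nuclear share, 1.39% and 1.30%, was 1.43% and 1.28%, 1.43% and 1.29%, and 1.27% and 1.23% under own-marker classes, no filter and single cells, and 1.29% and 1.19% of all UMIs. In the HFHC pool it was 1.27% without doublets and 1.32% with Sdhaf genes. The mt- UMIs per nuclear UMI, 6.32 and 6.49, were 6.09 and 5.90 at the 25% limit, 6.63 and 6.83 with own-marker classes, 6.38 and 7.59 without doublets, 6.14 and 6.01 over single cells, and 6.59 in the MCD-titled library without a filter.

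The 32 nuclear member values of 1 or more were 17 in cells thinned to 1000 UMIs, where fewer genes were measured. The 7 values of -1 or less were 13 when thinned, 14 with a minimum of 20 UMIs and 20 with none. The share of all genes past this ratio is not given for these settings, so these counts have no background beside them. Cells over the mt- limit, 4.32% and 1.24%, were 24.2% and 11.3% at 10%, 0.926% and 0.387% at 50%, and 8.58% and 1.48% without a filter on cells. Without thinning 59.4% and 49.7% of dendritic cell-like cells had a Cox6a2 UMI. The log2 ratio of Cox6a2 in endothelial cell-like cells, -1.53, turned to 0.55 without called doublets, and the cause was not tested. Of 3741 values of single genes and classes, 2819 moved by less than their counting interval, 921 by more and 1, that of Cox6a2, was past a log2 ratio of 1 and changed sign. Of the 100 values of the main results, 45 stayed the same and 55 moved. With smaller ratios included, 81 of 3074 values of single members between the libraries changed sign, and 7 of 57 values of the mt- share of a class other than hepatocyte-like.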

Other observations

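Classes with under 200 cells in either library entered no comparison. Cholangiocyte-like cells, 88 and 28, held 11.1% and 10.8% mt- UMIs and 1.85% and 1.61% nuclear member UMIs, and basophil- or mast cell-like cells, 74 and 19, held 5.64% and 5.33% mt- UMIs. Clusters with markers of several classes, 1201 and 403 cells, held 15.2% and 7.37% mt- UMIs, and 26.0% and 5.21% of their cells were over the 25% limit. Cells over 4000 genes, 68 and 814, held 9.72% and 7.06% mt- UMIs.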
